A study of Drosophila melanogaster with 2 samples.

Results

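The Polycomb and trithorax group genes of Drosophila melanogaster were examined for sites of Six4 recovery. They were taken as a list of 38 named genes, out of 13945 protein-coding genes on the 6 chromosome arms analysed. Six4, a DNA-binding homeodomain protein related to Sine oculis, was mapped by chromatin immunoprecipitation and sequencing (ChIP-seq) with an antibody against green fluorescent protein (GFP). The embryos came from 1 transgenic line with GFP fused to the C terminus of Six4, were 0 to 16 hours old and of both sexes, and were used whole, so all cell types are pooled. The 2 samples, biological replicates 1 and 3, form 1 group, and no second condition or control library was analysed here. The labels do not give the promoter of the transgene, and read depths are unknown. The signal at the same sites without the fusion protein was not measured here, and the replicates share the line.

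Polycomb group proteins keep genes silent through development, and trithorax group proteins keep genes active, so that cells remember early decisions such as the choice of Hox genes. Polycomb repressive complex 2 (PRC2) methylates histone H3, PRC1 binds that mark and modifies H2A, and proteins such as Pleiohomeotic (Pho) bring the complexes to DNA. The trithorax group includes histone methyltransferases, an acetyltransferase and ATP-driven remodelers such as the Brahma complex. Several genes of both groups are themselves known Polycomb targets, the ph locus among them.

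A gene was counted as occupied when the summit of a peak fell in its body extended by 2 kb on both sides. Peaks were those of the authors' set thresholded by the irreproducible discovery rate (IDR), whose coordinates are those of the strongest peaks from the pooled replicates in all cases but 1. Of the 38 genes 25 (65.8%) were occupied, against 31.2% of all protein-coding genes. The windows held 46 distinct summits, 1 of them shared by ph-p and ph-d. Summits within 500 bp of one of the gene's own transcription start sites (TSS) were found at 10 of the 38 (26.3%), against 17.3% of all protein-coding genes. When each summit was given to the protein-coding gene with the nearest TSS, 17 of the 38 (44.7%) received 1 or more, against 19.4% of all protein-coding genes. Without the 2 kb extension the count fell to 13 of 38, with 10.4% of all protein-coding genes. These shares are descriptions, and no test of the list was made.

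Long windows hold summits more often, and many of these genes are long. Among windows under 10 kb, 9 of 16 members were occupied, against 26.5% of all genes of that class. Among windows of 10 to 25 kb it was 9 of 15, against 45.4%, and all 7 members with windows over 25 kb were occupied, against 55.9%. The share of occupied genes was therefore higher than that of all genes in each of the 3 length classes, by different amounts. A summit within 500 bp of an own TSS was found at 5 of 16 members under 10 kb, against 15.6% of all genes of that class. From 10 to 25 kb it was 4 of 15, against 24.3%, and over 25 kb 1 of 7, against 23.2%. The promoter share was thus above that of all genes mainly in windows under 10 kb.

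**Figure D1:**
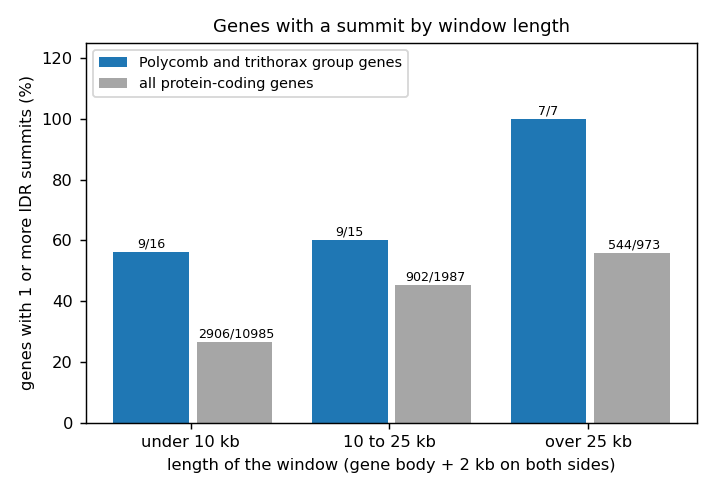
Share of genes with 1 or more IDR summits (vertical axis, percent) by length of the gene window (horizontal axis), for Polycomb and trithorax group genes (left bars) and all protein-coding genes (right bars), with counts above the bars. The members stood at 9 of 16, 9 of 15 and 7 of 7, each above the grey bar.

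The strongest sites in these windows were among the strongest of the whole set. The strongest summit ranked among the first 100 peaks for 6 members (15.8%), against 1.4% of all protein-coding genes, and among the first 500 for 12 (31.6%), against 5.79%. Of those 6 sites 3 (ash1, Caf1-55 and Pc) lay outside the member, past its 3′ end and at or near the start of a neighbour. The median signal of the strongest summit was 256 over the 25 occupied members and 148 over all occupied genes. By window length the medians were 154 in members and 145 in all genes under 10 kb. They were 393 in members and 155 in all genes from 10 to 25 kb, and 280 in members and 168 in all genes over 25 kb. The signal is the score of the authors' peak caller, on a scale the sources used here do not give.

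The DNA under 10 of these summits is shown because the results below turn on these strong sites, chosen to include sites at own starts, in introns and past gene ends. Each sequence reaches up to 60 bp to each side of the summit, on the strand of the named gene, from the RefSeq Release 6 genome (dm6). Capitals mark GAGAG (the core site of the GAGA factor), GCCAT (the core of Pho sites) or TAATTA (a site of homeodomain proteins) on either strand.
site past the end of ash1 (chr3L:19590560-19590680, minus strand): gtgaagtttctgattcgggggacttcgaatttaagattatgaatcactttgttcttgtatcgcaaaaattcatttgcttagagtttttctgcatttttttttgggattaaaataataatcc
site past the end of Caf1-55 (chr3R:15229467-15229587, plus strand): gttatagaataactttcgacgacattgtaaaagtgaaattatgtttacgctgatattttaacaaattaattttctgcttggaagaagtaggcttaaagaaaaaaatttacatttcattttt
site between the starts of ph-p (chrX:2137268-2137388, minus strand): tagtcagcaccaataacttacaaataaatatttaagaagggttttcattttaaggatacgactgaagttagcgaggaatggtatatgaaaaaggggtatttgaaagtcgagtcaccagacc
site before ph-d (chrX:2123999-2124119, minus strand): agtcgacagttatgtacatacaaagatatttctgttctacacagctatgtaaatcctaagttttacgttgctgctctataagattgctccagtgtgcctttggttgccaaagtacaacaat
first intronic site of osa (chr3R:17704344-17704464, minus strand): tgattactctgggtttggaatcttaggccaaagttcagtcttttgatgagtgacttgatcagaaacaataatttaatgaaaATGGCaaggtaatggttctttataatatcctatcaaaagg
second intronic site of osa (chr3R:17700553-17700673, minus strand): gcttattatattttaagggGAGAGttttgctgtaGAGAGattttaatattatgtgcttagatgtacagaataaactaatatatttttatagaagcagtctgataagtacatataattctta
intronic site of trx (chr3R:14283835-14283955, minus strand): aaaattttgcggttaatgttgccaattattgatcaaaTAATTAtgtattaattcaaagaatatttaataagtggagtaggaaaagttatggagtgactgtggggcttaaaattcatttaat
site before brm (chr3L:15982940-15983060, minus strand): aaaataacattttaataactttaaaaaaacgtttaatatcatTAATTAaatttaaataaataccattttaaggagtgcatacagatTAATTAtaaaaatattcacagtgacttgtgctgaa
site before nej (chrX:9687692-9687812, minus strand): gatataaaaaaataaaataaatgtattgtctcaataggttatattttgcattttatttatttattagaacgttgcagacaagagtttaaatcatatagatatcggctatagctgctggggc
intronic site of kis (chr2L:223489-223609, minus strand): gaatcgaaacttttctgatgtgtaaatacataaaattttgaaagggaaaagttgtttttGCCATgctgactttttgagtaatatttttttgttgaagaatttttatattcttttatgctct

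Of these 10 sequences, 5 held no match in the stretch shown, including the ash1, Caf1-55 and ph-p sites, which have the highest signals of the 38 windows. The second osa site held GAGAG 2 times and the brm site TAATTA 2 times.

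PRC1 genes included ph-p, the member with the most summits in its window. By nearest TSS it received 4, as did psq. ph-p and ph-d lie in tandem on X (2126210 to 2138371 and 2115727 to 2123286, both on the minus strand) and encode subunits with a domain that polymerises. Of the 5 summits in the ph-p window the strongest, 1013 in the IDR set and rank 11, had a signal of 434 in replicate 1 (rank 10) and 620 in replicate 3 (rank 7). It lay inside the gene, 473 bp before an inner TSS and 1043 bp after the outermost one. A second summit of 557 (rank 76) lay 402 bp after the outermost TSS, with 263 in replicate 1 and 317 in replicate 3. Intronic summits of 198 (rank 907) and 128 (rank 1986) followed 1243 and 2118 bp after a TSS. The DNA between the genes held 2 more, 200 bp apart. They lay 773 bp (signal 418, rank 152) and 973 bp (248, rank 559) before the ph-d TSS. The latter also counts among the 5 of the ph-p window, 1951 bp past the ph-p 3′ end. The summit at 773 bp had nearly equal signals in the replicates, 209 and 209, at rank 106 in replicate 1 and 228 in replicate 3. The signals of the 5 summits in the ph-p window summed to 2144, of which the strongest gave 47.3%. The strongest ph-p site ranked among the first 11 peaks in all 3 lists, and both replicates gave the same order to the 3 strongest sites of the locus.

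**Figure D2:**
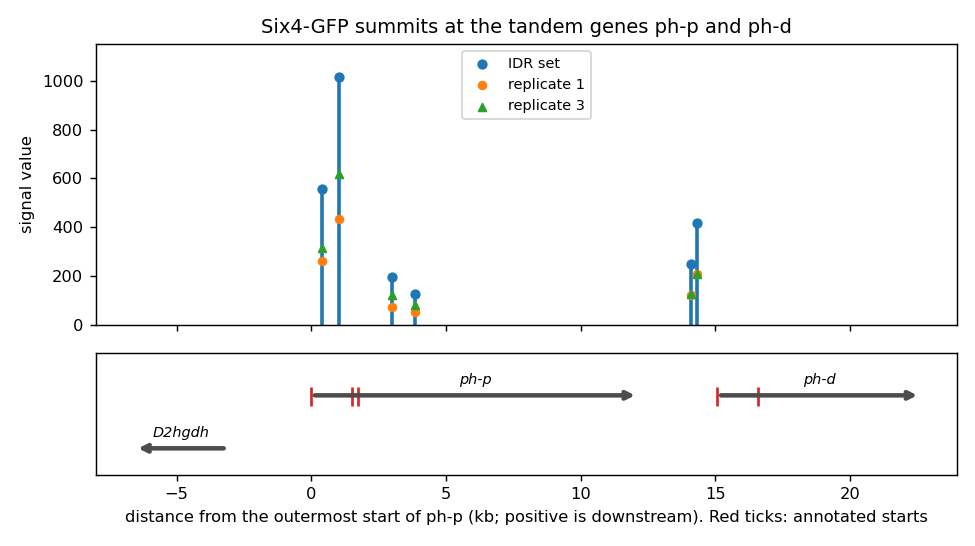
Signal of the IDR summits at ph-p and ph-d (vertical axis, in each list) by distance from the outermost ph-p start (horizontal axis, kb), with gene models below and annotated starts as red ticks. Summits sit near the starts of ph-p, the highest at 1013, and just before the start of ph-d, the highest at 418.

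Of the other PRC1 genes, Pc and Psc had summits in their windows and Su(z)2, Sce and Scm had none. The window of Pc, whose chromodomain binds methylated H3, held a single summit of 626 (rank 58), with 310 in replicate 1 and 309 in replicate 3. It lay 1536 bp past the 3′ end of Pc and 56 bp from the TSS of CG11309, so no summit was found near the Pc start. Psc, a RING-type subunit, had an intronic summit of 256 (131 in replicate 1, 121 in replicate 3) 5080 bp from a TSS. A weaker summit of 101 lay 17 bp from a Psc TSS. Su(z)2 is the paralogue of Psc and lies head to head with it, at a distance of 15506 bp. Its window held no IDR summit, but 2 lay in the DNA between the genes and outside both windows. The stronger, of 551 (rank 77), with 245 in replicate 1 and 308 in replicate 3, was 4219 bp before Psc and 11288 bp before Su(z)2. The weaker had a signal of 137 (rank 1766) and was nearest to CG33798. Sce, the ubiquitin ligase of PRC1, and Scm, a linker protein, had no summit.

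Among genes of PRC2, E(z) and Su(z)12 had summits at their own promoters. E(z) (3L, 10634575 to 10638130, minus strand), the H3K27 methyltransferase, had a summit of 331 (rank 294) 53 bp after its TSS. The replicates gave 143 (rank 309) and 187 (rank 291), and the TSS of Cnep1r2 starts 16 bp away in the other direction. Su(z)12, a zinc finger subunit, had summits of 138 and 111 that were 211 bp apart and flanked its TSS at 72 and −139 bp, the second nearer to Pfdn6. The summit in the window of the histone-binding WD40 subunit Caf1-55 had a signal of 1068 (rank 7), with 482 in replicate 1 and 591 in replicate 3. It lay 1963 bp past the 3′ end of Caf1-55 and 119 bp before Art3, an arginine methyltransferase, close to the edge of the 2 kb extension. The window of Pcl, an accessory subunit, held summits of 180 and 84.3, both past its 3′ end and nearest to pAbp. jing, another accessory factor with a window of 123787 bp, had 4 summits between 82.9 and 177, none within 500 bp of a TSS. The strongest of the jing summits was nearest to the TSS of CG15233. esc and escl, paralogous WD40 subunits that bind methylated H3, had no summit, and neither did Jarid2, an accessory subunit.

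Among genes of the DNA-binding and deubiquitinase complexes, 1 window held a site among the first 500. phol, a paralogue of pho, had a summit of 460 (rank 126; 194 in replicate 1, 271 in replicate 3) that lay 1502 bp before its TSS and at the promoter of CG3437. A second of 98.0 was at the promoter of CG3448. Sfmbt, the partner of Pho, had a promoter summit of 88.4, the weakest among the members' strongest. The replicates gave it 37.9 (rank 3981) and 62.0 (rank 2543). calypso, the deubiquitinase (caly in the annotation), had one of 114 at −497 bp from its TSS, nearer to CG42837, while its partner Asx had none. pho itself, which encodes the DNA-binding protein of the complex and lies on chromosome 4, had none. The GAGA-associated BTB proteins psq and lolal were both occupied. psq had 4 intronic summits between 88.5 and 177, and lolal had 1 of 142, 5 bp from a TSS.

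Trithorax group genes with histone-modifying products had the strongest site of the list in the window of 1 of them. It had a signal of 1532 (rank 3), 634 in replicate 1 (rank 3) and 901 in replicate 3 (rank 2). The site counts for ash1 (3L, 19590773 to 19598755, minus strand), an H3K36 methyltransferase, but lay 153 bp past its 3′ end and 96 bp before CG14100, 8135 bp from the ash1 TSS. trx (3R, 14263358 to 14286903, minus strand), an H3K4 methyltransferase, had an intronic summit of 528 (rank 87; 215 in replicate 1, 312 in replicate 3) 3008 bp from its TSS. It had another of 126 in an intron and one of 156 at the promoter of its neighbour red. nej, the CBP acetyltransferase, had summits of 280 (121 in replicate 1, 159 in replicate 3) at −686 bp and of 119 at −364 bp from 2 different TSS. The windows of trr (90.4) and ash2 (101), both parts of H3K4 methyltransferase complexes, held 1 summit each, past the 3′ end and at the promoters of CG14818 and CG6695. Utx, the H3K27 demethylase, had none.

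Remodeler genes had strong sites in introns and 1 at a promoter. osa (3R, 17687818 to 17718350, minus strand), the subunit that defines the BAP form of the Brahma complex, had 2 intronic summits 3791 bp apart. The first had a signal of 732 (rank 27), with 324 in replicate 1 (rank 28) and 404 in replicate 3 (rank 29), 13946 bp from the osa TSS. The second had 411 (rank 163), with 189 in replicate 1 and 226 in replicate 3, and by distance was nearer to the TSS of CG31249. brm (3L, 15970082 to 15982869, minus strand), the ATPase, had a summit of 393 (rank 191) at −131 bp from its TSS, with 163 in replicate 1 and 227 in replicate 3. The opposite TSS of Arl1 was at −266 bp, so this summit lay between the starts of both genes. mor, the scaffold subunit, had a promoter summit of 89.2 at −168 bp and one of 154 that was 1124 bp from the TSS of Hel89B. Snr1, a core subunit, and polybromo, the subunit that marks the PBAP form, had none. Mi-2, the NuRD ATPase, had 3 summits of 293, 91.2 and 89.2, the first 6918 bp from a Mi-2 TSS. Those of 293 and 91.2 were nearer to the TSS of Su(Tpl), at 6113 and 2475 bp. kis, a CHD-family remodeler, had one of 238 (108 in replicate 1, 130 in replicate 3), at −1587 bp from an inner TSS. dom, of the SWR1 family, had one of 114 at 570 bp. Iswi and E(bx), the ATPase and largest subunit of NURF, had none.

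**Figure D3:**
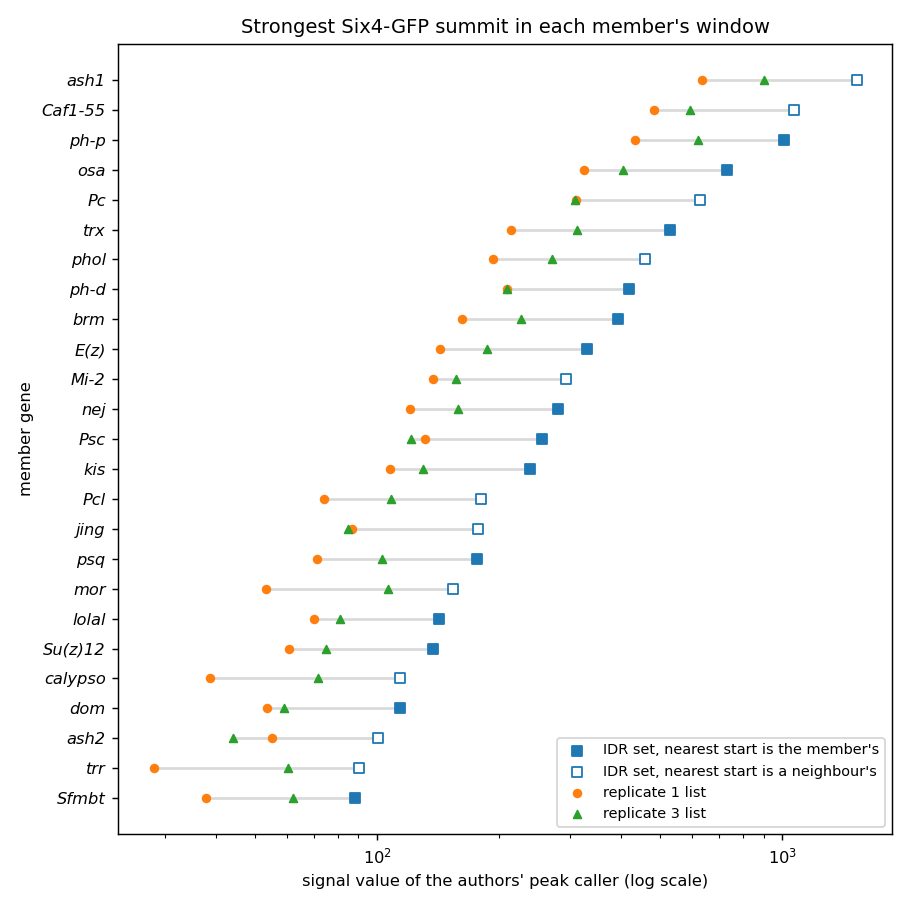
Signal of the strongest summit (horizontal axis, log scale) for the 25 occupied genes (vertical axis), in the IDR set and in both replicate lists. Filled squares are summits nearest to the member's own start and open squares those nearest to a neighbour's, which include the ash1 (1532) and Caf1-55 (1068) sites.

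By role, 4 of 7 PRC1 genes, 5 of 8 PRC2 genes, 2 of 3 Pho complex genes, 1 of 2 deubiquitinase genes and both BTB genes were occupied. In the classes taken as trithorax it was 5 of 6 with histone-modifying products, 3 of 5 of the Brahma complex and 3 of 5 other remodelers. By nearest TSS (19.4% of all protein-coding genes) the counts for PRC1, PRC2, Pho complex, deubiquitinase and BTB genes were 3, 3, 1, 0 and 2. For the trithorax classes, in the order above, they were 2, 3 and 3. ash1, ash2 and trr were occupied only through a summit past the 3′ end and nearest to another gene. Taking the first 5 classes as Polycomb genes, 14 of 22 (63.6%) were occupied and 7 (31.8%) had a promoter summit. In the trithorax classes these numbers were 11 of 16 (68.8%) and 3 (18.8%). The other remodelers, Mi-2 and dom among them, were put with these classes as a choice made here. Median windows were 10179 bp in the Polycomb classes and 14713 bp in the trithorax classes. Over all protein-coding genes the shares were 31.2% occupied and 17.3% with a promoter summit, so the trithorax share of promoter summits was near that of all genes.

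Sites were also sorted by the nearest TSS at any distance. For 14 of the 25 occupied genes the strongest summit was nearest to the gene's own TSS, and for 11 to that of another gene. The summit was within 500 bp of the other gene's TSS for 7 of the 11, while those of jing and Mi-2 lay in the member's own gene body. By place, the strongest summit lay in the gene body for 12, before the annotated start for 7 and past the 3′ end for 6. All 6 of the last kind (Pc, Caf1-55, Pcl, ash1, ash2 and trr) were nearest to another gene's TSS. With each summit given to its nearest TSS, 4 members had one among the first 100 (0.703% of all protein-coding genes) and 8 among the first 500 (3.23%). Over the 46 summits, 21 (45.7%) lay within 500 bp of any protein-coding TSS, against 46.8% of all IDR summits. Peaks narrower than the most common width made up 16 of the 46 (34.8%), against 16% of all IDR peaks. These narrow peaks had signals of 238 (kis) or more and the others of at most 256 (Psc). Width thus went with signal and is not a separate trait. Introns held 20 (43.5%), against 34.7% of all IDR summits, and coding sequence held none, against 0.201%. Of the 21 promoter summits 14 (66.7%) fell before the TSS they were nearest to, against 85.2% over the IDR set.

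**Figure D4:**
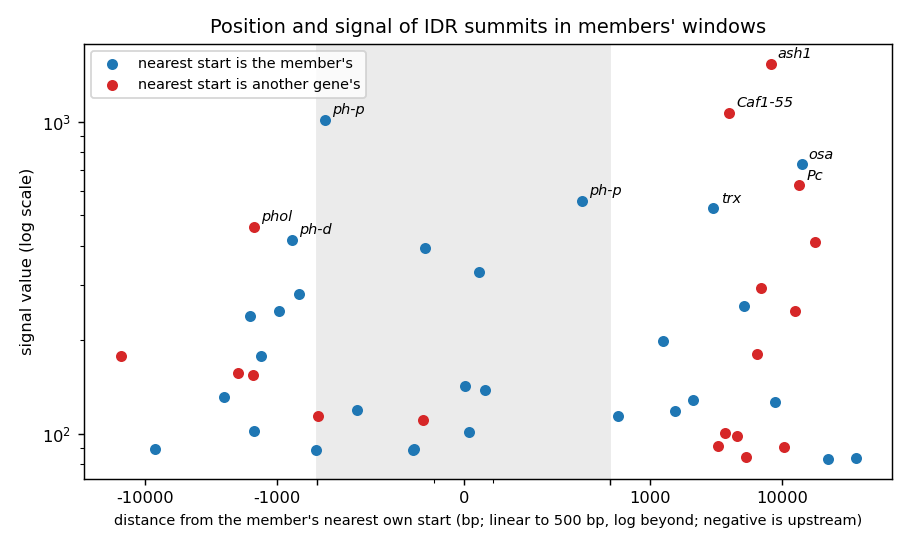
Signal (vertical axis, log scale) against distance from the member's nearest own start (horizontal axis, bp, linear to 500 bp and log beyond), 1 point per summit and gene, with the 500 bp promoter zone in grey. Strong sites lie both beside starts (ph-p, 1013) and kilobases from them (osa, 732), and those of ash1 and Caf1-55 are nearest to another gene's start. Another gene started within 1000 bp in the opposite direction at 22 of the 38 members, and 7 of these had a summit at their own TSS, as did 3 of the other 16. Shares over all genes were not computed for these counts, so they describe the list only.

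Sequences around the 46 summits (100 bp to each side) were searched on both strands for 6 motifs. GAGAG was present at 16 (34.8%), against 22.5% of all IDR summits. TAATTA was present at 10 (21.7%), against 18.4%, and GCCAT at 7 (15.2%), against 25%. TATCGATA, the DNA replication-related element, was at 1, the Sfmbt summit (2.17%), against 3.40%. The M1BP site GGTCACACT was at 0 of 46, against 1.33%, and TGATAC, the core of Six4-type sites, at 0 of 46, against 6.49%. These shares followed the width searched. Within 50 bp GAGAG was at 21.7% of the members' summits, against 9.34% of all, and GCCAT at 6.52%, against 13.3%. Within 250 bp GAGAG and GCCAT were both at 56.5% of the members' summits, against 52.7% (GAGAG) and 56.6% (GCCAT) of all. Within 250 bp, TGATAC was at 3 summits (6.52%), against 13.1% of all. The median share of G and C was 35.6% at these summits and 34.3% at all IDR summits. Some of the summits overlap, such as those before ph-d, so they are not independent.

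All but 1 of the IDR peaks had the coordinates of one of the strongest pooled entries, so the set was in effect a cut on pooled signal. The pooled list comes from both replicates, so the replicate values at these sites are a description of peaks chosen in that way. All 46 peaks overlapped an entry in both replicate lists, as did 99.9% of all IDR peaks, and 37 (80.4%) overlapped in both an entry among as many of the strongest as the IDR set holds, against 75% of all IDR peaks. In 4 that held for replicate 1 alone and in 5 for replicate 3 alone. The median shift of the summit was 11.5 bp in replicate 1 and 10 bp in replicate 3, against 12 bp in replicate 1 and 13 bp in replicate 3 over all IDR peaks. The widest shift at a member was 151 bp, at Sfmbt in replicate 1. Signals in replicate 3 had a median of 1.3 times those in replicate 1, with 1.29 over all IDR peaks, so replicate 3 gave the higher signals at members and in general. Across the 46 peaks Spearman's rho of the signals was 0.846, against 0.694 over all IDR peaks, a description of peaks that share both libraries. The sets were not matched for spread of signal, on which rho depends, so these values do not rank their reproducibility. An example of a poor match was a summit of Mi-2 (IDR signal 89.2), with rank 1565 in replicate 1 and 10129 in replicate 3. When that number of strongest entries from each replicate was used alone, 22 members were occupied in the IDR set and in both replicates. ash2 was not occupied in replicate 3, and Sfmbt and trr were not in replicate 1, while Su(z)2, Jarid2 and E(bx) were occupied in replicate 3 alone.

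**Figure D5:**
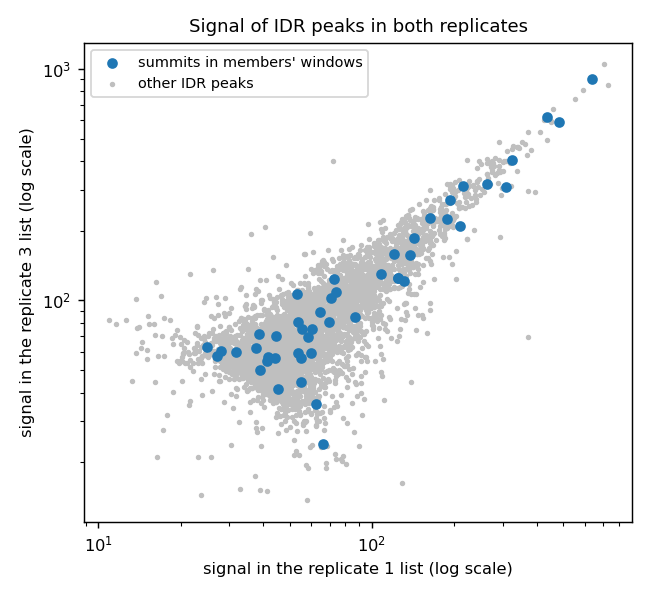
Signal in replicate 1 (horizontal axis) against replicate 3 (vertical axis), both on log scales, for IDR peaks in members' windows and all others. The ash1 site is the member point at the top, at 634 and 901.

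The 13 genes without an IDR summit each had an entry of the pooled list in the window. Of all protein-coding genes 77.4% had one, a share that includes the occupied genes. The nearest to the limit was Su(z)2, with a pooled entry of signal 78.7 and rank 4148, 75 bp from its TSS, while the lowest signal in the IDR set was 81.1. Jarid2 (rank 4264, −31 bp), Snr1 (4551, −206 bp) and E(bx) (4856, −86 bp) followed. For esc the best entry ranked 5912, for Asx 6804, for Utx 7079 and for polybromo 9156. Those of escl (11102), Scm (11316), pho (14941), Iswi (23613) and Sce (27482) were far down. In 10 of the 13 (76.9%) the best entry lay within 500 bp of the gene's own TSS, against 36.7% of the 6436 genes of the same kind in the genome. Such entries include background and are not calls of binding.

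Other genes of the same pathways were taken from a further list of 46. Of these 27 (58.7%) were occupied, against the 31.2% of all genes, and 18 (39.1%) had a summit within 500 bp of an own TSS, against 17.3% of all genes. Their median window was 10980.5 bp, against 6166 bp over all protein-coding genes, and shares by window length were not computed for them. The list was chosen with earlier results of these data known, so these shares describe it only. The strongest lay in an intron of Trl, which encodes the GAGA factor (620, rank 59; 322 in replicate 1, 312 in replicate 3), 1 of 4 summits there. Kdm2, an H3K36 demethylase that joins a PRC1 variant, also had 4, led by 422. The summit in the window of MRG15, a chromodomain protein, was 516 and lay at the promoter of CG4338. simj, a NuRD subunit, had 5 intronic summits, led by 446, and 4 of them, the strongest included, were nearer to the TSS of CG11811. pont, an ATPase of remodeling complexes, had a promoter summit of 319 at −130 bp. Those of Dsp1 (312), Chd1 (267) and HDAC1 (255) were nearest to CG9921, Bem46 and Src64B.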

How the data were processed

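Anti-GFP ChIP-seq of 2 biological replicates of 1 group was analysed from peak lists on dm6. The authors deposited, per the file names, a list of peaks and background per replicate, a like list for the whole series (here called pooled) and an IDR thresholded set. For the aligner, the peak caller and the IDR cutoff, names and settings were not given in the sources used here. Every deposited peak has a signal value and a −log10 q value from the authors' caller. In the IDR set 2226 peaks share the highest −log10 q, so peaks were ranked by signal. Read depth is unknown, so no counting interval is given. The lists held 30000 (replicate 1), 28237 (replicate 3) and 30000 (pooled) entries, and all but 1 of the IDR peaks had the coordinates of one of the strongest pooled entries. The dm3 lists were not used here.

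Genes and TSS came from Ensembl release 115, sequence from the RefSeq Release 6 genome, where 99.9% of 16213 annotated start codons read ATG. Of the 38 members 37 matched by symbol and calypso by a synonym. Each IDR peak was matched to the overlapping replicate entry (1 bp or more) with the nearest summit. Scripts used python 3.11.15, numpy 2.4.6, pandas 2.3.3, scipy 1.17.1 and matplotlib 3.10.9. Counting was checked on planted summits. Every member is named. The 8 other genes with the strongest summits were named. Members, lists and motifs were chosen with earlier results of these data known. No condition was compared and no test was made.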

Additional observations from a re-analysis of the deposited data

How the results depend on the processing

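The count of 25 occupied members (31.2% of all protein-coding genes) became 17 with the nearest TSS (19.4% of all genes), 28 with an extension of 5 kb (43.7% of all genes) and 13 without any extension (10.4% of all genes), so the share over all genes moved with each rule too. Leaving out a replicate gave 23 (replicate 1 alone) and 27 (replicate 3 alone), each beside 31.1% of all genes. Members with a promoter summit numbered 7 within 250 bp (13.6% of all genes) and 13 within 1000 bp (19.9% of all genes). They numbered 9 in replicate 1 alone (17.3% of all genes) and 13 in replicate 3 alone (17.2%). Among the stronger of 2 equal parts of the IDR set, which holds fewer peaks by construction, they numbered 5 (9.71% of all genes). For the other pathway genes the count of 27 (31.2% of all genes) became 11 without extension (10.4% of all genes). It became 16 with the nearest TSS (19.4% of all genes) and 17 in that stronger part (18.9% of all genes). The median rank of the strongest peak per occupied member, 529, was 473 in replicate 1 and 669 in replicate 3. Motif shares followed the window searched. Within 250 bp of the summit GAGAG and GCCAT both stood at 56.5%, against 52.7% (GAGAG) and 56.6% (GCCAT) of all IDR summits. Within 50 bp GAGAG stood at 21.7%, against 9.34% of all, and GCCAT at 6.52%, against 13.3%. TAATTA stood there at 10.9%, against 10.3%, and TATCGATA at 0%, against 1.48%. The share of member summits at promoters lay between 39.1% (within 250 bp, against 36.8% of all IDR summits) and 58.7% (within 1000 bp, against 56%). The count matched in both replicates was 36 or 37, beside 71.5% to 75% of all IDR peaks. Depth per library is unknown, and with 1 group no paired analysis was possible because there was no second group to pair.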
